A study of Mus musculus with 19 samples.

Results

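The 46 genes described here act in the cell cycle and in DNA replication, and they were chosen by symbol from the deposited expression table. All 46 were found among its 24237 usable gene entries. They fill 47 entries, because Kif11 has 2, and all 47 passed the filter on low values. Epididymal white adipose tissue (eWAT) was taken from 19 male C57Bl6/J mice, and RNA from each mouse was sequenced as 1 library. No transgene is named for these inbred mice, which were 9 to 10 weeks old at the start and ate 1 of 4 diets for 17 weeks. NormMg-LFD (n = 4) held 0.21% wt/wt MgO and 10% of its energy as fat. LowMg-LFD (n = 5) held 0.03% MgO and 10% fat, NormMg-HFD (n = 5) held 0.21% MgO and 60% fat, and LowMg-HFD (n = 5) held 0.03% MgO and 60% fat. The fat was palm oil. The groups were compared to learn how dietary Mg2+ acts in mice on a low-fat or high-fat diet. The tissue is whole fat, with adipocytes, vessels, stromal and immune cells in it, and the adipocyte markers were high in every mouse (8 genes, summed FPKM 11370 to 20170).

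A cell that divides passes from a growth phase (G1) into DNA synthesis (S phase) and then into mitosis. Cyclins switch on kinases at each step, E2F factors drive the genes of S phase, and the MCM proteins form the helicase that opens the DNA at origins. Mature adipocytes rarely divide. In the fat of obese mice, cycling cells are known among macrophages, stromal progenitors and endothelial cells. Most of the 46 genes are transcribed only while a cell is in cycle, so that in a whole tissue their level depends on how many cells are cycling. Fewer cycling cells and less RNA per cycling cell cannot be told apart in such samples.

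Values are FPKM as deposited, that is the fragments of a gene scaled by its length and by the mapped reads of the library. Differences are on the log2(FPKM + 1) scale, with a standard error (SE), and they understate the change of genes with low FPKM. P values are two-sided, from limma, and corrected over all genes tested (Benjamini-Hochberg). A gene was called when its adjusted p was under 0.05. Between 12986441 and 13027028 reads were obtained per mouse. The mean of the genes in NormMg-LFD mice ran from 0.3125 to 58.64 FPKM, and it was under 3 FPKM in 27 of 47 entries, so most of these transcripts are rare in lean fat.

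Some libraries held RNA of other organs. LowMg-HFD replicate 4 had a summed FPKM of 4347 over 22 male germ cell markers, against 86.8 to 135.3 in the other 4 LowMg-HFD mice. Its protamine Prm2 was at 870.5 FPKM, against at most 9.53 in those 4. Germ cells divide and undergo meiosis, and they express many genes of the cell cycle. The germ cell sum was also raised in NormMg-LFD replicate 5 (923.0), NormMg-LFD replicate 4 (454.2) and LowMg-LFD replicate 1 (320.9). It was 91.1 to 102.8 in the NormMg-HFD mice. The germ cell marker Sycp3 was listed at 65.7 FPKM or more in every mouse and makes up most of the sum in the lowest ones. NormMg-LFD replicate 3 had a sum of 1616 over 10 exocrine pancreas markers, against 12.4 to 52.3 in the other mice, and LowMg-LFD replicate 4 had a sum of 128.5 over 9 epididymis markers, against at most 4.37. The counts and differences that rest on LowMg-HFD mice are given over all 19 mice and, where the text says so, without LowMg-HFD replicate 4 (18 mice). That mouse enters the comparison of fat at normal Mg2+ only through the shared estimate of the variance and the filter.

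NormMg-HFD mice had the highest mean in 45 of 47 entries. On the high-fat diet, the genes were lower with low Mg2+: 20 of 47 entries were called lower in LowMg-HFD mice, with NormMg-HFD mice as the reference, and 0 higher, where 7.52% of all 15001 genes tested were called lower. Without replicate 4 it was 29 of 47, where 6.59% of all 14762 genes tested were called lower. With normal Mg2+, 38 of 47 entries were called higher on the HFD than on the LFD and 0 lower, where 16.8% of all genes were called higher (41 of 47 without replicate 4, where it was 18.2%). With low Mg2+, 12 of 47 were called higher on the HFD, where 6.61% of all genes were (11 without replicate 4, where it was 7.83%). On the LFD, 0 of 47 were called for Mg2+ by limma, as were 0% of all genes tested, so that this comparison does not set the 47 entries apart from other genes. The comparison of Mg2+ on the HFD and that of fat at normal Mg2+ share the 5 NormMg-HFD mice, so that they are not independent of each other.

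**Figure D1:**
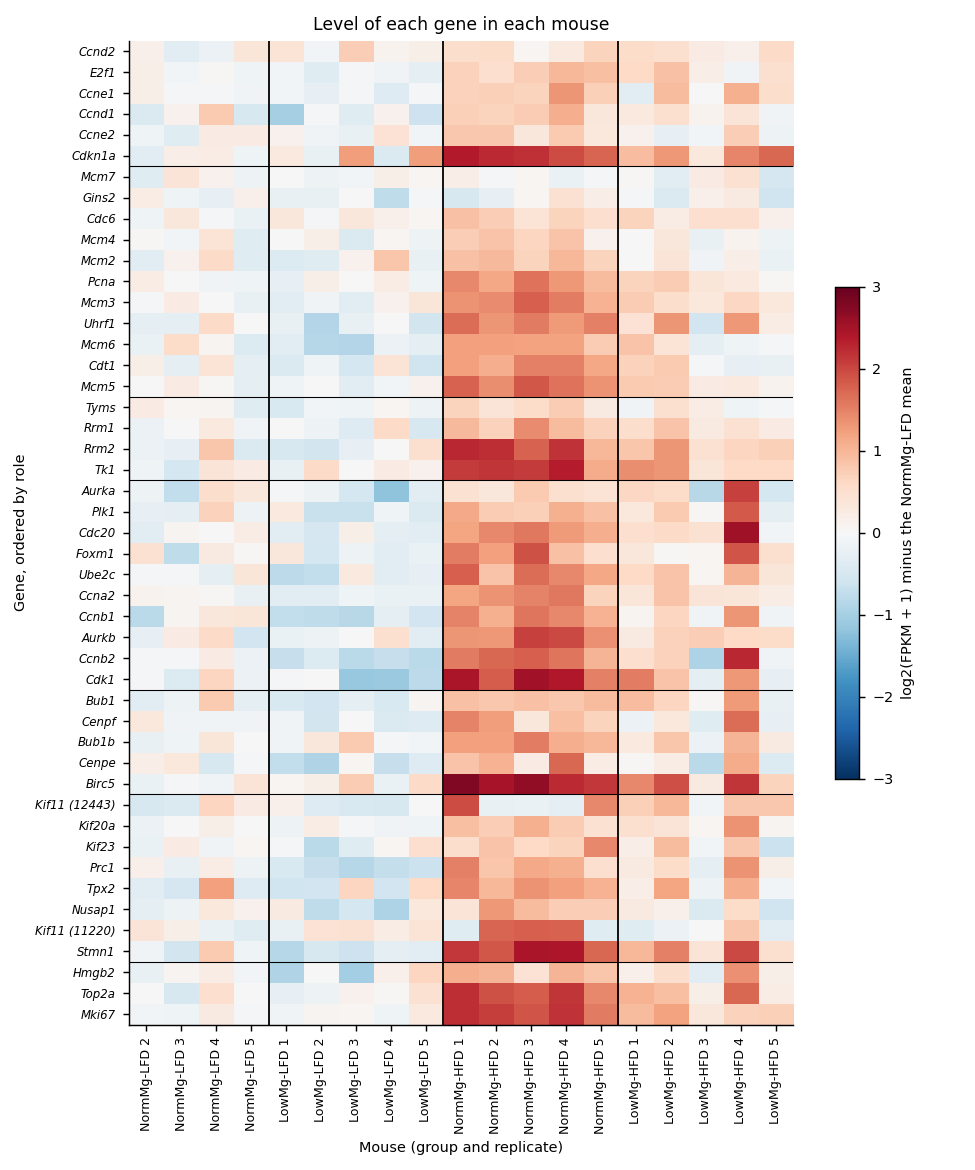
Each cell is the log2(FPKM + 1) of 1 gene in 1 mouse minus the mean of the 4 NormMg-LFD mice (red, higher; blue, lower); columns are mice by group, and rows are the 47 entries by role. The 5 NormMg-HFD columns are red in nearly all rows, the LowMg-HFD columns are paler, and LowMg-HFD replicate 4 is red in many mitotic and kinetochore rows; the digits beside Kif11 end its Ensembl identifiers.

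Promoters are shown because E2F sites are known from many genes of S phase, and the CHR from many genes of mitosis. RefSeq promoters (build GRCm38.p6, 250 bases before to 50 bases after the start of the gene) were matched by symbol for 35 of the 46 genes. The elements below were searched on both strands: the E2F site (TTTCCCGC, TTTCGCGC, TTTGCCGC or TTTGGCGC), the cell cycle genes homology region or CHR (TTTGAA), and the CCAAT box (CCAAT). An E2F site was found in 7 of 9 promoters of replication genes, in 1 of 7 of mitotic cyclin, kinase and ubiquitin genes, and in 2.6% of the promoters of all 27025 genes. It was found in 0 of 4 promoters of deoxynucleotide genes and in 0 of 3 of G1 genes, so that in this window not all S phase roles held these letters. A CHR was found in 6 of 7 promoters of the mitotic group and in 1 of 9 of the replication group, against 20.2% of all. It was found in 2 of 5 kinetochore, 3 of 4 spindle and 3 of 3 chromosome promoters. Of deoxynucleotide and G1 promoters, 0 of 4 and 0 of 3 held one. A CCAAT box was found in 26 of the 35, or 74.3%, against 41.1% of all, and all 15 promoters with a CHR also held one. Below are the promoters of Mcm5, Ube2c and Mki67, with every match in capitals. They were chosen for the lowest adjusted p in any of the HFD and fat comparisons, here fat at normal Mg2+, among called genes of the replication, mitotic and chromosome groups that have a promoter in the table. In the mitotic group, Ccna2 and Aurkb had lower adjusted p values and were not matched.
Mcm5, chr8:75109259-75109558, plus strand: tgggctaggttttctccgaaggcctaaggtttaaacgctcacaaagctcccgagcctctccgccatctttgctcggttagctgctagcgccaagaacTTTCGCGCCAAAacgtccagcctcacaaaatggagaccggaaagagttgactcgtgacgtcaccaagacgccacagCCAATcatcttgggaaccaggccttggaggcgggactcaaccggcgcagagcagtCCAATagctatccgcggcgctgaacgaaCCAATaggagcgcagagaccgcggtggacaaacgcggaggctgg
Ube2c, chr2:164769679-164769978, plus strand: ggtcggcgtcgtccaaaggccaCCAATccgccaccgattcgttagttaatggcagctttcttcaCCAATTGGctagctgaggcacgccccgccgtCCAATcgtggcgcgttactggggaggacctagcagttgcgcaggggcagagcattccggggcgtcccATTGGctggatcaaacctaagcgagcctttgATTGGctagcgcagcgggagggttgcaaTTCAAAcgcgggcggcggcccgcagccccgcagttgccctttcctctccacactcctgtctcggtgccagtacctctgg
Mki67, chr7:135716330-135716629, minus strand: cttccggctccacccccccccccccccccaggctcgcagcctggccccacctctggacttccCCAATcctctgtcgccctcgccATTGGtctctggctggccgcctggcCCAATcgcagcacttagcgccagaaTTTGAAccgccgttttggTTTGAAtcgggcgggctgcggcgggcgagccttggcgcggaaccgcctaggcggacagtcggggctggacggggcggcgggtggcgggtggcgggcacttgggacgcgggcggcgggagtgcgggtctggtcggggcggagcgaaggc
In the Mcm5 promoter the capitals mark an overlapping pair of E2F sites, 153 bases before the start, and 3 CCAAT boxes. The Ube2c promoter holds a CHR 29 bases before the start, read on the other strand, and 6 CCAAT boxes, of which 2 overlap head to head. The Mki67 promoter holds 2 CHRs, 116 and 98 bases before the start, and 3 CCAAT boxes. A match of letters is a description and does not show that a factor binds there.

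The genes of replication licensing and of the fork were called lower for Mg2+ on the HFD (LowMg-HFD against NormMg-HFD) in 8 of 11 cases. The count was the same without replicate 4, where 7.52% of all genes were called lower with it and 6.59% without it. Mcm5, a subunit of the MCM helicase, was at 12.06, 9.02, 12.95, 10.87 and 8.71 FPKM in the NormMg-HFD mice and at 5.58, 5.46, 3.48, 3.67 and 3.09 FPKM in the LowMg-HFD mice. The groups did not overlap, and replicate 4, at 3.67, lay within its group. The difference was -1.17 ± 0.158 (SE; adjusted p = 0.00188), or -1.14 ± 0.168 without replicate 4 (adjusted p = 0.00467). On the LFD, Mcm5 was at 2.84 ± 0.567 FPKM (SD, n = 4) with normal and 2.61 ± 0.413 FPKM (SD, n = 5) with low Mg2+. Its rise with fat was 1.61 ± 0.167 at normal Mg2+ (adjusted p = 3.92e-06) and 0.52 ± 0.158 at low Mg2+ (adjusted p = 0.0477, and 0.0435 without replicate 4).

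Pcna encodes the sliding clamp of DNA polymerases and was the most abundant of the replication genes. It was at 75.98, 62.76, 86.48, 69.07 and 54.07 FPKM in NormMg-HFD mice and at 44.53, 47.40, 35.49, 33.76 and 28.30 FPKM in LowMg-HFD mice. Again the groups did not overlap, and the difference was -0.87 ± 0.143 (adjusted p = 0.00305), and -0.83 ± 0.153 without replicate 4 (adjusted p = 0.00632). On the LFD its mean was 27.6 ± 3.25 FPKM (SD, n = 4) with normal and 27.8 ± 3.91 FPKM (SD, n = 5) with low Mg2+. Pcna rose with fat by 1.29 ± 0.152 at normal Mg2+ (adjusted p = 7.34e-06), while its difference at low Mg2+, 0.42 ± 0.143, was not called (adjusted p = 0.0762, and 0.0684 without replicate 4).

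Mcm3, Mcm6, Mcm4 and Mcm2, the other helicase subunits that were called, fell on the HFD with low Mg2+ by 0.92, 0.96, 0.63 and 0.79, and all 4 stayed called without replicate 4. Cdt1, which loads the helicase onto origins, was at 6.28, 5.6, 7.89, 7.87 and 5.95 FPKM in NormMg-HFD mice and at 4.01, 4.37, 2.00, 1.64 and 1.66 FPKM in LowMg-HFD mice, without overlap (difference -1.11 ± 0.237, adjusted p = 0.0074, and 0.0166 without replicate 4). Uhrf1, which maintains DNA methylation at the fork, was called by a small margin (adjusted p = 0.0495, and 0.0205 without replicate 4). The exceptions were Mcm7, Gins2 and Cdc6. Mcm7, also a helicase subunit, had means of 13.95, 13.74, 13.65 and 13.96 FPKM in NormMg-LFD, LowMg-LFD, NormMg-HFD and LowMg-HFD mice. Gins2, a part of the replicative helicase complex, had means of 9.97, 8.31, 10.1 and 9.21 FPKM in the same order. Neither was called in any comparison. Cdc6, which also loads the helicase, rose with fat at normal Mg2+ (0.64 ± 0.172, adjusted p = 0.00978) from a mean of 0.6175 to 1.506 FPKM and was not called for Mg2+ on the HFD (-0.22 ± 0.162, adjusted p = 0.428).

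The enzymes of deoxynucleotide supply were called higher with fat at normal Mg2+ in 4 of 4 cases, where 16.8% of all genes were. Rrm2, the regulated subunit of ribonucleotide reductase, was at 10.43, 10.11, 7.14, 9.79 and 3.76 FPKM in NormMg-HFD and at 3.25, 4.97, 2.31, 2.72 and 2.95 FPKM in LowMg-HFD mice. NormMg-HFD replicate 5 was the lowest of its group and lay among the LowMg-HFD mice. Even so the difference was called (-1.08 ± 0.279, adjusted p = 0.0179, and 0.0345 without replicate 4). Tk1, the thymidine kinase of S phase, fell by 1.11 (SE 0.252, adjusted p = 0.00934, and 0.0214 without replicate 4), from 19.1 ± 5.48 to 8.39 ± 3.12 FPKM (SD, n = 5 each). Its NormMg-HFD replicate 5, at 9.80 FPKM, again lay among the LowMg-HFD mice. Rrm1, the other subunit of the reductase, and Tyms, which makes thymidylate, were not called on the HFD, with differences of -0.47 ± 0.185 (adjusted p = 0.115) and -0.45 ± 0.146 (adjusted p = 0.0582). Both rose with fat at normal Mg2+, by 0.94 and 0.53.

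The regulators of G1 and of entry into S phase were called lower on the HFD with low Mg2+ in 0 of 6 cases by limma, which does not set them apart from all genes, of which 7.52% were called lower. At an unadjusted p under 0.05, 3 of the 6 were lower over all 19 mice, Cdkn1a, Ccne2 and E2f1. Of all 15001 genes tested, 3678 reached it in either direction, so that 3 in so short a list says little. Ccnd1 and Ccnd2 encode D cyclins, which answer to growth factors, and Ccne1 and Ccne2 encode E cyclins, which start S phase. Ccnd2 was among the most abundant genes of all 46, at 77.0 ± 10.4 FPKM in LowMg-HFD and 78.3 ± 12.6 FPKM in NormMg-HFD mice (SD, n = 5 each). Ccne2 was called lower without replicate 4 only (-0.70 ± 0.178, adjusted p = 0.0203, and 0.0937 with it). Cdkn1a, which encodes the cyclin-dependent kinase inhibitor p21 and so acts against the cycle, had the pattern of the genes that drive it. It was at 83.95, 76.55, 73.59, 62.05 and 53.98 FPKM in NormMg-HFD and at 30.02, 39.09, 19.46, 44.32 and 52.79 FPKM in LowMg-HFD mice. These groups did not overlap, but the difference of -0.96 ± 0.306 missed the threshold (adjusted p = 0.0537, and 0.0513 without replicate 4).

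With fat at normal Mg2+, Cdkn1a rose by 2.10 ± 0.324 (adjusted p = 9.31e-05) from 15.55 ± 2.93 FPKM (SD, n = 4) to 70.02 ± 11.9 FPKM (SD, n = 5). In total 5 of the 6 G1 genes were called higher there, where 16.8% of all genes were. The exception was Ccnd2 (0.42 ± 0.171, adjusted p = 0.0786). E2f1, the transcription factor of S phase genes, rose with fat at both Mg2+ levels, by 0.77 ± 0.161 at normal Mg2+ (adjusted p = 0.00159) and by 0.59 ± 0.152 at low Mg2+ (adjusted p = 0.0215, and 0.0036 without replicate 4).

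**Figure D2:**
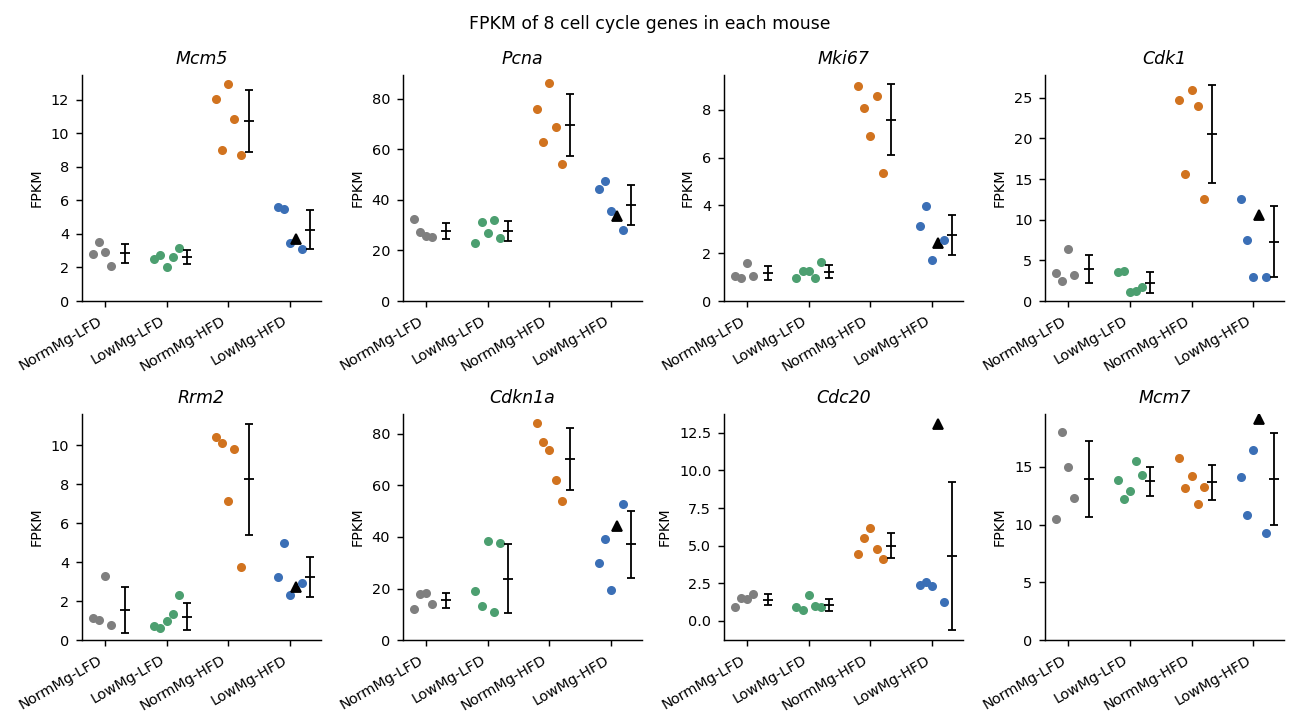
FPKM of 8 genes (vertical axis, linear) in each mouse, by diet group; coloured points are mice, the black triangle is LowMg-HFD replicate 4, and the bar gives the mean and SD of the group. Mcm5, Pcna and Mki67 separate the NormMg-HFD from the LowMg-HFD mice, Cdc20 is at 13.07 in replicate 4 alone, and Mcm7 is level across the groups.

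The mitotic cyclins, kinases and ubiquitin ligase parts were called lower for Mg2+ on the HFD in 5 of 10 cases, and in 8 of 10 without replicate 4. Of all genes, 7.52% and 6.59% were called lower. Cdk1, the kinase that starts mitosis, was at 24.67, 15.58, 25.91, 23.94 and 12.49 FPKM in NormMg-HFD mice and at 12.58, 7.51, 2.92, 10.63 and 2.94 FPKM in LowMg-HFD mice. LowMg-HFD replicate 1, at 12.58, was just above the lowest NormMg-HFD mouse, at 12.49, and the rest were apart. The difference of -1.51 ± 0.356 (adjusted p = 0.0114, and -1.68 ± 0.365 with adjusted p = 0.0108 without replicate 4) corresponds to 0.357 times the NormMg-HFD mean, the smallest ratio among the called genes. Over the 20 called entries that ratio ran up to 0.59, with a median of 0.48. Ccna2, the A cyclin of S phase and mitosis, was at 8.13 ± 2.04 FPKM in NormMg-HFD and 4.10 ± 0.919 FPKM in LowMg-HFD mice (SD, n = 5 each; difference -0.82 ± 0.158, adjusted p = 0.00486, and 0.00974 without replicate 4). Aurkb, the kinase of the chromosomal passenger complex, was at 5.01 FPKM or more in each NormMg-HFD mouse and at 3.10 FPKM or less in each LowMg-HFD mouse (difference -1.03 ± 0.221, adjusted p = 0.00732, and 0.0128 without replicate 4).

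Replicate 4 decided several calls of this group. Cdc20, the activator of the anaphase-promoting complex, was at 2.41, 2.56, 2.30, 13.07 and 1.25 FPKM in the LowMg-HFD mice, the 13.07 being replicate 4, and at 4.12 to 6.15 FPKM in NormMg-HFD mice. With replicate 4 the difference was -0.51 ± 0.333 (adjusted p = 0.372), and without it -0.95 ± 0.176 (adjusted p = 0.00644). Ccnb2, a B cyclin, was at 2.60, 3.09, 0.34, 11.16 and 1.36 FPKM in the same order, against 4.16 to 7.79 FPKM in NormMg-HFD mice. Its difference went from -1.05 ± 0.376 (adjusted p = 0.0838) to -1.50 ± 0.254 (adjusted p = 0.00625). Foxm1, the transcription factor of mitotic genes, was at 8.92 FPKM in replicate 4 and at 1.71 to 2.70 FPKM in the other 4. Its adjusted p went from 0.252 to 0.0321. Aurka and Plk1, kinases of the spindle poles and of mitotic entry, were not called either way (adjusted p = 0.882 and 0.504, and 0.317 and 0.0865 without replicate 4). For Aurka the ratio of the group means was 1.25, above 1, while the difference on the log2 scale was -0.12 ± 0.405, because replicate 4, at 10.43 FPKM, weighs more in a mean of FPKM.

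With fat at normal Mg2+, 8 of 10 genes of this group were called higher, where 16.8% of all genes were. Cdk1 rose by 2.14 ± 0.378 (adjusted p = 0.000333), 5.27 times in the ratio of the means. Ube2c, the ubiquitin-conjugating enzyme of the anaphase-promoting complex, rose by 1.38 ± 0.242 at normal Mg2+ (adjusted p = 0.000312) and by 0.94 ± 0.228 at low Mg2+ (adjusted p = 0.0153, and 0.0313 without replicate 4). Ccnb1, the main mitotic B cyclin, rose by 1.33 ± 0.281 and 1.01 ± 0.265 in these comparisons (adjusted p = 0.00166 and 0.0235, the latter 0.0409 without replicate 4).

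In the kinetochore and spindle checkpoint group, 2 of 5 genes were called lower on the HFD with low Mg2+, and 4 of 5 without replicate 4. Of all genes, 7.52% and 6.59% were. Birc5 encodes survivin, a part of the chromosomal passenger complex. It was at 12.87, 10.30, 11.87, 8.63 and 7.86 FPKM in NormMg-HFD and at 4.48, 6.80, 1.46, 8.0 and 2.22 FPKM in LowMg-HFD mice, where the 8.0 was replicate 4. The difference was -1.16 ± 0.297 (adjusted p = 0.0176), and -1.38 ± 0.282 without replicate 4 (adjusted p = 0.0088). Birc5 had the largest rise with fat at normal Mg2+ of the 47 entries, 2.45 ± 0.315 (adjusted p = 1.62e-05), from 1.06 ± 0.400 (SD, n = 4) to 10.3 ± 2.11 FPKM (SD, n = 5), 9.72 times in the ratio of the means. Bub1b, a checkpoint kinase, fell on the HFD with low Mg2+ by 0.77 (SE 0.222, adjusted p = 0.0328, and 0.0149 without replicate 4). Cenpe and Cenpf, kinetochore proteins, were called lower only without replicate 4 (adjusted p = 0.0355 and 0.0103, against 0.15 and 0.187 with it). Bub1 was at 2.14 to 2.45 FPKM in NormMg-HFD mice and at 2.38, 1.81, 0.83, 3.35 and 0.52 FPKM in LowMg-HFD mice, and was not called (adjusted p = 0.467, and 0.206 without replicate 4).

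Of the 8 entries of spindle and cytokinesis genes, 1 was called lower on the HFD with low Mg2+, and 4 without replicate 4, where 7.52% and 6.59% of all genes were. In so short a list, 1 call is near the share of all genes and says little of the group. The 1 was Stmn1, which encodes the tubulin-binding stathmin. It was at 51.92, 43.29, 65.38, 64.63 and 39.62 FPKM in NormMg-HFD and at 23.33, 33.63, 14.87, 47.64 and 16.17 FPKM in LowMg-HFD mice. Replicate 4, at 47.64, was the only LowMg-HFD mouse inside the range of the NormMg-HFD mice (difference -1.04 ± 0.280, adjusted p = 0.0227, and 0.0082 without replicate 4). Prc1, Nusap1 and Kif20a, which bundle spindle microtubules or act in cytokinesis, were added without replicate 4, with adjusted p = 0.0127, 0.0322 and 0.0271. With fat at low Mg2+, Prc1 rose by 1.09 ± 0.233 (adjusted p = 0.00759, and 0.00858 without replicate 4), and Stmn1 by 1.58 ± 0.280 (adjusted p = 0.00285, and 0.00327 without replicate 4), the largest rise among the genes at low Mg2+.

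Kif11, the motor that pushes the spindle poles apart, has 2 entries in the table, ENSMUSG00000012443.3 on chromosome 19 and ENSMUSG00000111220.1 on an alternate patch of the assembly. The entries are copies of 1 gene, so that each value alone is uncertain. In NormMg-HFD mice the first was at 4.39, 0.19, 0.22, 0.15 and 2.76 FPKM, and the second at 0, 3.29, 3.46, 3.39 and 0 FPKM. Where 1 entry was high, the other was near 0. Neither was called in any comparison. Their sum was at 4.39, 3.48, 3.68, 3.54 and 2.76 FPKM in NormMg-HFD and at 1.27, 1.89, 0.59, 2.68 and 1.45 FPKM in LowMg-HFD mice, without overlap. Summing was tried after the data were seen. The summed Kif11 was called lower on the HFD with low Mg2+ (-0.87 ± 0.197, adjusted p = 0.00895, and -1.01 ± 0.183 with adjusted p = 0.00617 without replicate 4) and higher with fat at normal Mg2+ (1.37 ± 0.209, adjusted p = 8.16e-05).

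The chromosome and chromatin group held Mki67, Top2a and Hmgb2. Mki67 encodes Ki-67, which coats mitotic chromosomes and is the usual marker of cycling cells. It was at 9.01, 8.07, 6.90, 8.58 and 5.34 FPKM in NormMg-HFD and at 3.12, 3.98, 1.73, 2.44 and 2.54 FPKM in LowMg-HFD mice. The groups did not overlap, and replicate 4, at 2.44, was within its group, unlike for Cdc20 or Ccnb2. The difference was -1.20 ± 0.168 (adjusted p = 0.00265), and -1.17 ± 0.179 without replicate 4 (adjusted p = 0.00522). On the LFD its means were 1.16 ± 0.292 (SD, n = 4) and 1.22 ± 0.272 FPKM (SD, n = 5) with normal and low Mg2+. It rose with fat by 1.98 ± 0.178 at normal Mg2+ (adjusted p = 3.61e-06) and by 0.74 ± 0.168 at low Mg2+ (adjusted p = 0.0103, and 0.011 without replicate 4). Top2a, the topoisomerase that untangles replicated DNA, fell by 1.09 (SE 0.260, adjusted p = 0.0121, and 0.00625 without replicate 4), from 13.2 ± 2.87 to 6.14 ± 3.33 FPKM (SD, n = 5 each). Hmgb2, a chromatin protein, was at 29.68 FPKM in replicate 4 and 8.28 to 16.04 FPKM in the other 4 LowMg-HFD mice, and was not called (adjusted p = 0.328, and 0.0943 without replicate 4).

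**Figure D3:**
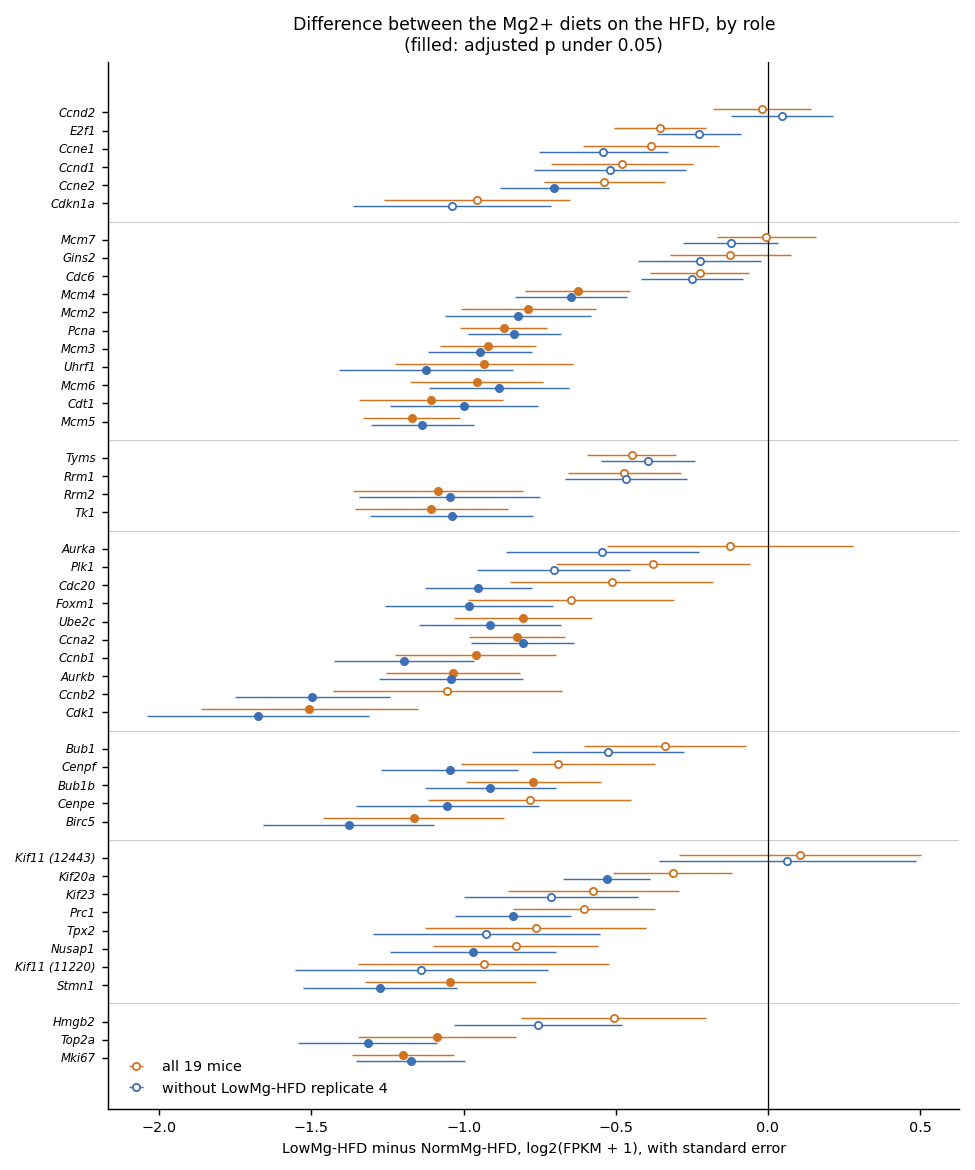
Difference of each of the 47 entries between LowMg-HFD and NormMg-HFD mice on the log2(FPKM + 1) scale (horizontal axis, points with SE), by role from the G1 group at the top to the chromosome group at the bottom, over all 19 mice (orange) and without LowMg-HFD replicate 4 (blue); filled points have an adjusted p under 0.05. The kinetochore rows and most mitotic rows lie further left in blue (Ccnb2 at -1.50 against -1.05), while Aurkb, Ccna2 and most replication rows hardly move, with Uhrf1 an exception at -1.12 against -0.93, and the digits beside Kif11 end its Ensembl identifiers.

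Across all 47 entries, the difference for Mg2+ on the HFD had a median of -0.77, and -0.91 without replicate 4, where the median of all genes tested was 0.00 and -0.04. The groups did not overlap in 8 entries, each lower in LowMg-HFD mice, where 6.37% of all genes were apart in that direction. Without replicate 4 it was 19 entries, against 8.45% of all genes. The count of 20 called rested on few mice per group. It went to 29 without LowMg-HFD replicate 4, to 11 and 13 without LowMg-HFD replicates 3 and 5 (4.7% and 4.88% of all genes called lower), and to 12 without each of NormMg-HFD replicates 1, 3 and 4 (5.01%, 4.13% and 5.06%). The genes called for Mg2+ on the HFD under all alternatives run for them were Mcm3, Mcm5, Mcm6, Pcna, Cdt1, Tk1, Cdk1, Ccna2, Aurkb, Top2a and Mki67.

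LowMg-HFD replicate 4 was placed differently in its group from role to role, in counts over few entries. It lay above the other 4 LowMg-HFD mice in 7 of 10 mitotic entries, 5 of 5 kinetochore entries, 5 of 8 spindle entries and 2 of 3 chromosome entries. It did so in 2 of 11 replication entries, 2 of 6 G1 entries and 0 of 4 deoxynucleotide entries. In 9 of 47 entries it was the highest of all 19 mice: Mcm7, Hmgb2, Kif20a, Aurka, Ccnb2, Cenpf, Cdc20, Plk1 and Bub1. It was the highest of its group in 23 of 47 entries, where replicates 1, 2, 3 and 5 were in 6, 15, 1 and 2. The share of all genes in which it stood highest was not computed, so these counts have no background beside them. The largest excess was that of Cdc20, 5.11 times the next LowMg-HFD mouse. At the other end, E2f1 was at 4.92 FPKM in replicate 4, below the 6.31 to 10.67 FPKM of the other 4. The germ cell sum of this mouse is given above, and its part in these levels was not tested.

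**Figure D4:**
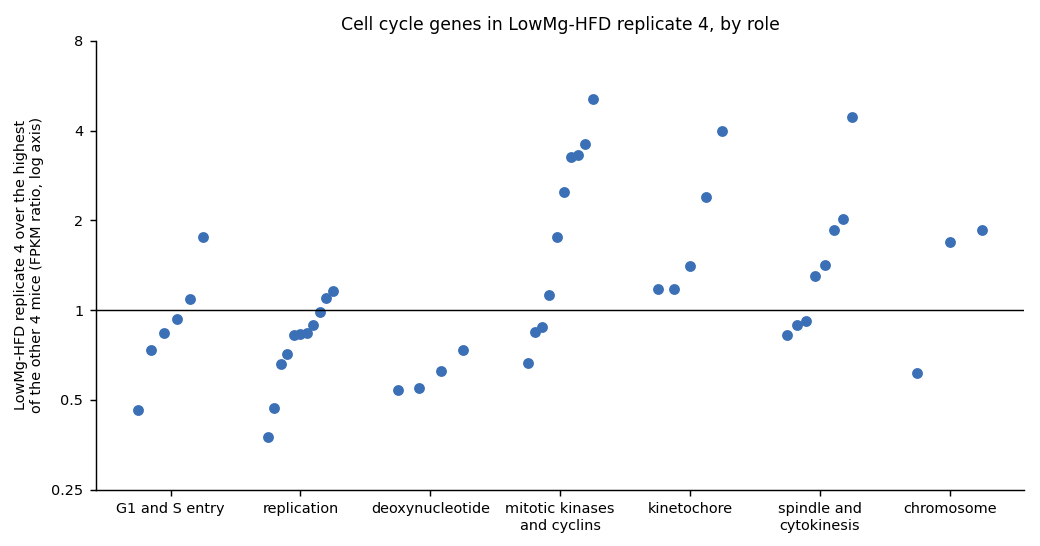
FPKM of LowMg-HFD replicate 4 divided by the highest of the other 4 LowMg-HFD mice (vertical axis, log scale), with 1 point for each of the 47 entries, by role. The line at 1 marks a tie: all 5 kinetochore points are above it, up to 4.00 for Cenpf, and all 4 deoxynucleotide points are below it.

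With fat at normal Mg2+, the median difference of the 47 entries was 1.01, where that of all genes was 0.01. In 37 entries every NormMg-HFD mouse was above every NormMg-LFD mouse, where 15.4% of all genes were apart in that direction. Over the 38 called entries the ratio of the means ran from 1.5 (Tyms) to 9.72 (Birc5), with a median of 3.03. The 9 entries not called were Ccnd2, Hmgb2, Cenpe, Aurka, Plk1, Gins2, Mcm7 and both of Kif11. NormMg-LFD replicate 4 was the highest of its group in 26 of 47 entries, where replicates 2 and 3 were in 9 and 7. The share of all genes was not computed for these counts. Among the 26 was Plk1, at 2.54 FPKM against 0.80 to 0.96 FPKM in the other 3. NormMg-LFD replicate 5, with the larger germ cell sum, was the highest in 5 entries and the lowest in 17. Without the 3 mice with the highest germ cell sums (LowMg-HFD replicate 4 and NormMg-LFD replicates 4 and 5), 35 of 47 were called higher with fat at normal Mg2+, where 17.2% of all genes were, and 29 of 47 lower for Mg2+ on the HFD, where 7.06% of all genes were. This setting was added after the data were seen. Of the germ cell markers themselves, 0 of 17 tested were called for fat at normal Mg2+ by limma over 19 mice, and 13 of 14 tested were called lower without LowMg-HFD replicate 4. Without NormMg-LFD replicate 3, the mouse with pancreas transcripts, 30 were called higher with fat at normal Mg2+, where the share of all genes called higher also went down, to 13.6%. It was much the same without NormMg-LFD replicate 2 or replicate 5, with 31 called in each case and 13.9% and 14.8% of all genes. With quantile normalization 40 of 47 were called higher, while the calls over all genes went from 2519 higher and 1421 lower to 2088 higher and 1791 lower.

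With fat at low Mg2+, the 12 called genes were E2f1, Mcm3, Mcm5, Rrm2, Ccna2, Ccnb1, Cdk1, Ube2c, Birc5, Prc1, Stmn1 and Mki67, with ratios of the means from 1.59 to 3.54. The groups were apart in 5 entries (Stmn1, Prc1, Ccna2, Mki67 and Ccnb1), each higher in LowMg-HFD mice, where 4.95% of all genes were apart in that direction. Without replicate 4, E2f1 was added, which made 6 entries, where 8.09% of all genes were apart. Without replicate 4, Mcm3, Cdk1 and Birc5 were no longer called, and Mcm6 and Cdc20 were added. The median difference of the 47 entries was 0.61, where that of all genes was 0.11, and the count depended on the scaling and on single mice, as did that of all genes. When each mouse was centred on its median, 4 of 47 were called higher, and the calls over all genes turned from 991 higher and 277 lower to 363 higher (2.42%) and 542 lower. With quantile normalization it was also 4 of 47, and 473 genes of all higher (3.15%) and 532 lower. The count went to 4 and 7 without LowMg-HFD replicates 2 and 1, where 3.53% and 3.98% of all genes were called higher, and up to 17 and 16 without LowMg-HFD replicates 3 and 5, where it was 7.37% and 5.96%. Without LowMg-LFD replicates 1 and 2 it went to 6 and 7, where it was 3.64% and 5.58%. With the LowMg-HFD and LowMg-LFD groups fitted alone it was 2, where it was 1.99%.

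On the LFD, where no gene was called for Mg2+, there were 3 entries (Mcm6, Prc1 and Ccnb1) at an unadjusted p under 0.05, each lower in LowMg-LFD mice, where 5.95% of all genes reached it in either direction. Prc1 was at 4.34, 3.13, 4.62 and 3.31 FPKM in NormMg-LFD mice and at 2.52, 1.96, 1.64, 1.91 and 2.06 FPKM in LowMg-LFD mice. Prc1 and Ccnb2 were the 2 entries whose LFD groups did not overlap, both lower in LowMg-LFD mice, where 1.23% of all genes were apart in that direction. The difference of Prc1, -0.68 ± 0.248, had an adjusted p of 0.835, and that of Ccnb2, -0.68 ± 0.399, an adjusted p of 0.866.

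The interaction asks if the effect of Mg2+ differed between the diets, and 0 of 47 entries were called by limma, as in all genes tested, of which 0% were called. At an unadjusted p under 0.05 there were 15, all with a more negative Mg2+ difference on the HFD, where 16.4% of all genes reached it in either direction. Without replicate 4 there were 21, again all more negative on the HFD, where it was 16.3% of all genes. The lowest adjusted p belonged to Mki67 (-1.24 ± 0.244, adjusted p = 0.0587), Mcm5 (-1.09 ± 0.230, adjusted p = 0.0621) and Pcna (-0.87 ± 0.209, adjusted p = 0.0746). Without replicate 4 these were 0.0574, 0.0776 and 0.0884, and 0 of 47 entries were called, where 8 genes of all, or 0.0542%, were. Over the alternatives run, the adjusted p of Mki67 went from 0.0236 to 0.115. Calls of 4, 3 and 3 entries, all lower, were made without NormMg-HFD replicate 5, LowMg-HFD replicate 1 and LowMg-HFD replicate 2, where 0.479%, 1.41% and 1.4% of all genes were called lower. So a difference between the diets was not shown at this threshold, although Mg2+ was called on the HFD and not on the LFD.

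Other genes of the pathway were read from 3 lists of 94 genes with none of the 46 in them, of which 93 passed the filter. On the HFD with low Mg2+, 15 of 93 were called lower and 1 higher, and without replicate 4 it was 28 lower and 1 higher, where 7.52% and 6.59% of all genes were called lower. Of other mitotic genes, 8 of 41 were called lower (21 without replicate 4), of other replication factors 4 of 31 (4), and of other G1 regulators and inhibitors 3 of 21 (3). The medians of the lists were -0.52, -0.25 and -0.15, where that of all genes was 0.00. The largest falls were those of Spc25, Cenpa and Mad2l1, which act at the kinetochore. Spc25 fell by 1.16 (SE 0.328, adjusted p = 0.0307, and 0.0111 without replicate 4), from 11.7 ± 2.69 to 5.42 ± 3.71 FPKM (SD, n = 5 each). Cenpa, the histone H3 variant of centromeres, fell by 1.12 (SE 0.241, adjusted p = 0.00748, and 0.017 without replicate 4), and Mad2l1, a checkpoint protein, by 1.01 (SE 0.253, adjusted p = 0.0159, and 0.0351 without replicate 4).

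Over all 19 mice, the 1 gene of the lists that was called higher with low Mg2+ on the HFD was Ccnd3, the third D cyclin. It was at 59.8 ± 2.96 FPKM in NormMg-HFD and 72.5 ± 3.60 FPKM in LowMg-HFD mice (SD, n = 5 each; difference 0.27 ± 0.0829, adjusted p = 0.0418, and 0.0622 without replicate 4). Ccnd3 was thus not called without replicate 4, and the 1 gene called higher there was another of the other G1 regulators and inhibitors. With fat at normal Mg2+, 33 of 93 were called higher and 3 lower, where 16.8% of all genes were called higher and 9.47% lower. Without replicate 4 it was 41 higher and 3 lower. The largest rises were those of Spc25 (2.66 ± 0.348, adjusted p = 1.98e-05), Cenpa (1.65 ± 0.255, adjusted p = 9.47e-05) and Nuf2, also a kinetochore protein (1.64 ± 0.316, adjusted p = 0.000753). The 3 that fell were Ccnd3 and the inhibitors of cyclin-dependent kinases Cdkn2c and Cdkn1c. Cdkn2c was at 119.6 ± 23.5 FPKM (SD, n = 4) in NormMg-LFD and 57.6 ± 11.9 FPKM (SD, n = 5) in NormMg-HFD mice (difference -1.04 ± 0.217, adjusted p = 0.00142), and Cdkn1c fell by 0.85 (SE 0.223, adjusted p = 0.00825). With fat at low Mg2+, 12 of 93 were called higher, where 6.61% of all genes were, and without replicate 4 it was 8 higher and 1 lower. The largest rises were those of Spc25 (1.64), Dlgap5 (1.04) and Ckap2 (0.98), the latter both spindle proteins. Without replicate 4, Dlgap5 was no longer called (adjusted p = 0.0747, against 0.0435 with it). On the LFD 0 of 93 were called by limma, and in the interaction 0 of 93.

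Wider gene sets, taken from the GO terms that the table gives and without the 46 genes, had shares of calls near or below those of all genes. Of 112 tested genes with the GO term cell cycle, 10 were called lower and 2 higher for Mg2+ on the HFD (8 and 1 without replicate 4), where 7.52% of all genes were called lower and 2.81% higher. With fat at normal Mg2+, 21 of the 112 were called higher and 8 lower (21 and 9 without replicate 4), where it was 16.8% and 9.47% of all genes. The medians were -0.02 and 0.03. Of 63 genes with the term DNA replication, 2 were called lower and 1 higher for Mg2+ on the HFD (2 and 0 without replicate 4), and 7 higher and 5 lower for fat at normal Mg2+ (8 and 5 without replicate 4).

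Most macrophage markers differed between the groups in the same directions as the cell cycle genes. Their summed FPKM (12 genes in 13 entries) was 624.3 to 765.3 in NormMg-LFD, 496.2 to 917.0 in LowMg-LFD, 3108 to 4865 in NormMg-HFD and 872.1 to 2773 in LowMg-HFD mice, with no entry at 0 in all mice of a group. Of the 12 entries tested, 11 were called lower for Mg2+ on the HFD and 11 higher for fat at normal Mg2+, with replicate 4 and without it. Of all genes, 7.52% and 16.8% were called in these directions over 19 mice. In each comparison 1 entry was not called and differed the other way, by 0.266 and -0.565. Among the LowMg-HFD mice, replicates 1 and 2 had the highest macrophage sums, 2773 and 2353, and mean log2 levels over the 47 entries of 2.56 and 2.75. Replicates 3 and 5 had sums of 1207 and 1295 and mean log2 levels of 2.10 and 2.19. Replicate 4 had the lowest macrophage sum, 872.1, and the highest mean log2 level, 3.02.

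The other marker lists were read in the same comparisons. Of 8 stromal progenitor markers, 2 were called lower for Mg2+ on the HFD, and their sums were 857.7 to 1086 in NormMg-HFD and 643.2 to 884.8 in LowMg-HFD mice. Of 7 endothelial markers, 2 were called higher (268.7 to 339.0 in NormMg-HFD and 323.9 to 390.5 in LowMg-HFD mice), and of 8 adipocyte markers 4 were (13080 to 17400 and 15260 to 19190). Of 10 T and B lymphocyte markers, 0 were called by limma. Of all genes, 7.52% were called lower and 2.81% higher, and in lists this short a count of 2 says little of the cell type. With fat at normal Mg2+, 3 of the 8 stromal markers were called higher, 2 of the 7 endothelial markers lower, 5 of the 8 adipocyte markers lower and 1 higher, and 0 of the 10 lymphocyte markers. In this comparison 16.8% of all genes were called higher and 9.47% lower over 19 mice. The counts of markers were the same without replicate 4. The part of these cell types in the levels of the cell cycle genes was not tested.

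**Figure D5:**
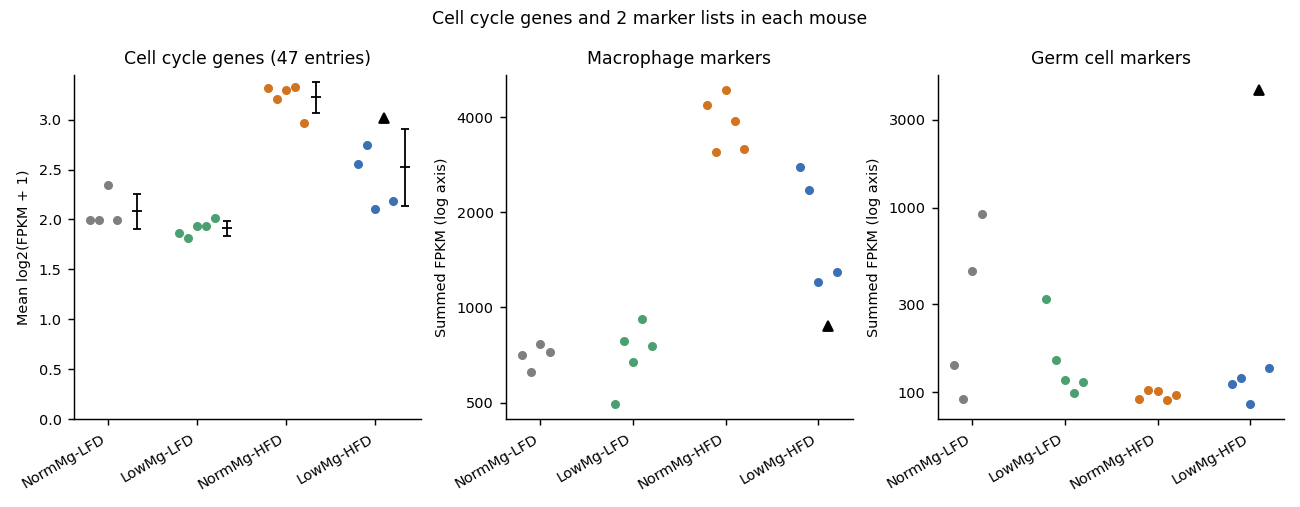
Left, mean log2(FPKM + 1) of the 47 entries in each mouse, with the group mean and SD; middle and right, summed FPKM of the macrophage and germ cell markers (log axes); points are mice, by diet group, and the black triangle is LowMg-HFD replicate 4. The NormMg-HFD mice are highest for macrophage markers, from 3108 to 4865, and replicate 4 combines the lowest macrophage sum of its group, 872.1, with the highest germ cell sum, 4347.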

How the data were processed

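RNA of eWAT from 19 mice was sequenced. The authors mapped the reads (the submitters' processing notes name HISAT, Bowtie2 and RSEM 1.2.31, and build GRCm38), and deposited FPKM per gene as 1 table of 24238 genes, with percent of reads mapped (86.12% to 90.41%) and read counts per mouse as deposited summaries. FPKM are not counts, so no count test was run. Of the table, 1 row holds text in place of a value and was not used. The study left out 1 LowMg-HFD sample for traces of pancreas. Which one is not given in the sources used here, so all 5 were kept. Summed exocrine pancreas markers were 21.12 to 44.6 FPKM in the 5 LowMg-HFD libraries and 1616 in NormMg-LFD replicate 3.

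Groups came from the labels. A pseudocount of 1 was added to FPKM and log2 was taken. Genes were tested where the mean log2(FPKM + 1) over all mice was at least that of an FPKM of 0.5 (15001 genes, or 14762 without LowMg-HFD replicate 4). The 4 groups were fitted together by limma 3.58.1 under R 4.3.3, the variance prior following mean expression, and 5 differences were tested. No replicate block was used, since the labels do not say that the numbers pair the mice. Each mouse was taken as 1 replicate. The study housed several mice per cage, and the labels do not give the cage. The fit was first tested on simulated data with known changes. Promoters came from RefSeq (GRCm38.p6), and figures were drawn with matplotlib 3.10.9.

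The members and the lists were chosen with earlier results of these data known. All 46 genes could be named. Of the other lists, the 3 largest rises and the 3 largest falls past the threshold of each contrast were named, and of promoters, the gene with the lowest adjusted p of 3 roles that has an entry. Alternatives were another pseudocount, other filters, scaling, no trend, fewer groups, a replicate block and leaving out each mouse.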

Additional observations from a re-analysis of the deposited data

Results flagged for a closer look

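Among 188 groups of 4 or 5 mice (47 entries in 4 diet groups), Dixon's test set 1 mouse apart in 13, and chance alone sets apart about 1 in 20 groups. LowMg-HFD replicate 4 was apart for Cdc20 (13.07 FPKM) and Foxm1 (8.92 FPKM). NormMg-LFD replicate 4 was apart for Tpx2 (4.35 FPKM), Plk1 (2.54 FPKM) and Bub1 (2.09 FPKM), each the highest of its group. NormMg-HFD replicate 5 was apart at the low end for Mcm6 (11.71 FPKM) and Tk1 (9.80 FPKM), and it was the lowest of its group in 27 of 47 entries. The others were Ccna2 in NormMg-LFD replicate 5 (2.18 FPKM, low) and in LowMg-HFD replicate 2 (5.70 FPKM, high), Ccne1 in NormMg-HFD replicate 4 (6.91 FPKM, high), Kif20a in LowMg-LFD replicate 2 (3.00 FPKM, high), Cenpf in NormMg-LFD replicate 2 (1.05 FPKM, high) and the Kif11 entry ENSMUSG00000012443.3 in LowMg-HFD replicate 3 (0.31 FPKM, low). Germ cell transcripts were raised in LowMg-HFD replicate 4 and in NormMg-LFD replicates 4 and 5, and their part in these values was not tested.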

How the results depend on the processing

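No direction of a called gene reversed under the alternatives run. For Mg2+ on the HFD, the count of 20 entries called went to 12 with the FPKM filter of the study, which left 19 of the 47 entries. With that filter 12.9% of all 8336 genes tested were called lower, against 7.52% in the main setting. It asks that some group has a mean over 8 FPKM with 4 or more of its mice above 8. Leaving out 1 mouse gave 11 to 29 entries and 825 to 1698 genes of all. For fat at normal Mg2+, the same filter gave 16 of the 19 entries, where 24.6% of all genes were called higher, against 16.8% in the main setting. Leaving out 1 mouse gave 30 to 41 entries and 3182 to 4524 genes. For fat at low Mg2+, the count of 12 went to 7 with no filter, where 3.09% of all genes were called higher. It went to 4 with median centring and to 4 with quantile normalization. It went to 2 when the 2 groups were fitted alone, where all genes called fell from 1268 to 393. Leaving out 1 mouse gave 4 to 17 entries and 686 to 1456 genes. For the interaction, the count of 0 entries went to 2 with the filter of the study and to 1 with quantile normalization, and leaving out 1 mouse gave 0 to 4. All genes called there went from 0 to 104 with the filter of the study, 2 with no filter, 2 with median centring and 31 with quantile normalization, and to 0 to 325 without 1 mouse. For Mg2+ on the LFD, all genes called went from 0 to 1 with no filter. Apart from the fewer entries tested, the cause was not tested.

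The labels do not say that the replicate numbers pair the mice. Over 27 pairs with the same number the correlation of deviations had a median of -0.0112, and 6 pairs were over 0.1 (highest 0.464). Over 108 pairs with other numbers the median was 0.000337, and 19 pairs were over 0.1 (highest 0.288). Of the 19 samples, 6 correlated best with a sample of their own number. With a replicate block, 18, 38, 10 and 0 entries were called for Mg2+ on the HFD, fat at normal Mg2+, fat at low Mg2+ and the interaction. With the entries of Kif11 summed, 21, 39, 12 and 0 were called. Depth is alike between mice, and the FPKM give no read counts from which to set an error for a single rare transcript.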
